A study of Mus musculus with 24 samples.

Results

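The comparison described here is the loss of the transcription factor E4F1 in mouse embryonic fibroblasts (MEFs) that lack the tumour suppressor p53. Its genes were the 475 genes, 1 per Entrez ID, named in the longer of the SAM lists that the authors deposited for knockout against control cells without the Ras oncogene, among 42851 genes or unnamed transcripts on the array. Control cells (genotype p53-/-, E4F1 +/-) and knockout cells (p53-/-, E4F1 -/-) were MEFs from 13.5-day embryos of a mixed C57BL/6 and 129Sv/J background. Both received a retrovirus carrying a CRE recombinase that excises itself, and RNA was taken 3 days after infection. CRE removed a floxed E4f1 allele, so that control cells kept 1 working copy of E4f1 and knockout cells kept 0. The controls are therefore not wild type, and both groups share the absence of p53 and the exposure to CRE. Each group held 6 samples, made of 3 biological replicates (A, B and C) labelled with both Cy3 and Cy5. On each of the 6 arrays, control and knockout RNA of 1 replicate were hybridised together, and the other array of that replicate carried the dyes swapped. The other 12 of the 24 samples of the series came from p53-/- MEFs transformed with Ha-RasV12 and were used only to compare the knockout effect between backgrounds.

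E4F1 is a zinc finger protein first described as a cellular factor that binds an adenovirus promoter. It binds p53 and acts on it, and it is also known as a direct activator of genes for the pyruvate dehydrogenase complex and of the checkpoint kinase gene Chek1. Pyruvate dehydrogenase turns pyruvate from glycolysis into acetyl-CoA inside mitochondria. The stated purpose of the study is the p53-independent transcriptome of E4F1, which cells without p53 allow to be measured.

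Signals are given as log2 of the authors' normalized intensity, averaged over both dyes of a replicate. A difference is the log2 ratio of knockout to control within an array, averaged over both dye orientations, with the SD over 3 replicates. A gene is represented by its brightest probe. It is said to have risen, fallen or been called where limma's moderated test on the 3 replicate ratios gave a Benjamini-Hochberg adjusted p under 0.05 over all 132488 probes. Calls in Ha-RasV12 cells rest on a fit of both backgrounds, described with them. Other genes are given by their values only. The replicates are labelled as independent biological replicates.

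The arrays agreed only weakly with each other over all probes. Log2 ratios of both dye orientations of 1 replicate correlated between -0.05 and 0.08 across probes, against 0.20 to 0.35 for different replicates with the same dye orientation and -0.13 to -0.02 for different replicates with opposite orientation. Averaging over orientations left correlations of 0.12 to 0.32 between replicate ratios. In a fit with a dye term, 3 of the 475 genes and 920 of all probes (0.694%) had a dye effect past the same threshold. Replicate A stood apart in level among the 475 genes. Its control signal was over 2-fold above or below both other controls for 81 of them (17.1%), against 3 and 1 for replicates B and C. Over all genes or unnamed transcripts the shares were 1.91%, 1.21% and 0.369% for A, B and C. Where a gene is high or low in replicate A, the groups can overlap although all 3 pairs moved one way.

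The labelled cell type was checked against marker genes. All 6 fibroblast markers that could be named (Fn1, Col1a1, Col3a1, Dcn, Pdgfra and Lum) lay above the control probes, with a summed intensity of 64425 to 72934 in the control replicates and 68760 to 72586 in the knockout replicates. Neither macrophage marker (Cd53 and Ptprc) nor the epithelial marker Epcam lay above the control probes in all channels of a group. The summed intensity was 248 to 463 in control and 268 to 472 in knockout for the macrophage markers, and 78 to 81 and 72 to 104 for Epcam. Summed intensities of the muscle markers (Des, Myh3 and Acta1) were 1645 to 4426 in control and 1945 to 4699 in knockout, and those of the neural markers (Nes and Map2) 997 to 1420 and 718 to 1046. The endothelial markers (Flt1 and Cd34) summed to 1127 to 1568 and 1043 to 1353, and the adipocyte markers (Lpl, Fabp4 and Pparg) to 1900 to 2197 and 1912 to 2807. Above the control probes in all channels of a group were 1 of 3 muscle, 1 of 2 neural, 2 of 2 endothelial and 2 of 3 adipocyte markers. In a culture measured as bulk RNA, fewer cells of a type and less RNA per cell cannot be told apart.

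E4f1 itself (chromosome 17) fell. Its log2 signal was 7.95, 7.62 and 8.05 in control replicates A, B and C and 6.57, 6.69 and 6.52 in knockout. The groups did not overlap, and no knockout sample rose above the control probes, random sequences whose 99th percentile served as background, against 5 of 6 control samples. The measured log2 ratio was -1.28 ± 0.31 (SD, n = 3; limma adjusted p = 0.0206). Because the knockout signal was at background, the fall is a bound of at least 1.28-fold, taken against the background level of each array. The log2 ratios of its 6 probes ran from -1.38 to -0.16. It is not known here whether any of them lies inside the deleted part. Trp53, the p53 gene, was at 8.18, 8.33 and 8.26 in control and 7.93, 8.12 and 7.88 in knockout at its brightest probe, where 6 of 6 control and 4 of 6 knockout samples were above the control probes. Its log2 ratio was -0.28 ± 0.09 (SD, n = 3; limma adjusted p = 0.564), and at its other 2 probes no sample was above them. It is not known here whether the brightest probe lies inside the deleted part of Trp53, so these signals do not check the p53-/- label.

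Of the 475 genes, 53 were called on these arrays, 45 lower and 8 higher in knockout cells, and 36 of the 48 genes at or over a 2-fold difference were lower. That is 11.2% of the genes, beside 0.126% of all genes or unnamed transcripts (0.105% lower and 0.021% higher). With any probe of a gene counted, 69 of the 475 genes had at least 1 called probe. Of all 132488 single probes 0.138% were called (0.113% lower and 0.0249% higher), a share of probes that cannot be set against a count of genes. The deposited list was made from the same arrays, so that the counts of called genes among the 475 describe the overlap of both analyses and are no separate support. By the brightest probe 281 genes had a log2 ratio under 0 and 194 over 0, and the median size of the log2 ratio was 0.56. Control and knockout replicates did not overlap for 207 genes (43.6%), beside 6.35% of all genes or unnamed transcripts. This share also comes from the arrays that made the list and is no separate support. The brightest probe was above the control probes in both groups for 297 genes, in control only for 44, in knockout only for 18 and in neither for 116. No other named gene was called, and 1 unnamed transcript was. The 54 calls became 46, 9 and 105 without replicate A, B or C, and 6 when control and knockout were compared unpaired. Of the 27 called genes that the naming rule gave, 8 stayed called without replicate B, among them Zfp945, Dnajc19, Mrfap1, Ndufs5, Wdr7, Zfp52 and Penk. The call of E4f1 was lost without A or B (limma adjusted p = 0.0632 and 0.0546). The authors' deposited tables were read as treating both dye orientations as independent arrays. The authors' deposited limma table held 239 genes (147 lower and 92 higher), the authors' deposited SAM table named for 1% held 240 and the authors' deposited SAM table named for 5% held the 475, with q up to 0.151 and 87 genes at a q of 0.05 or less.

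**Figure D1:**
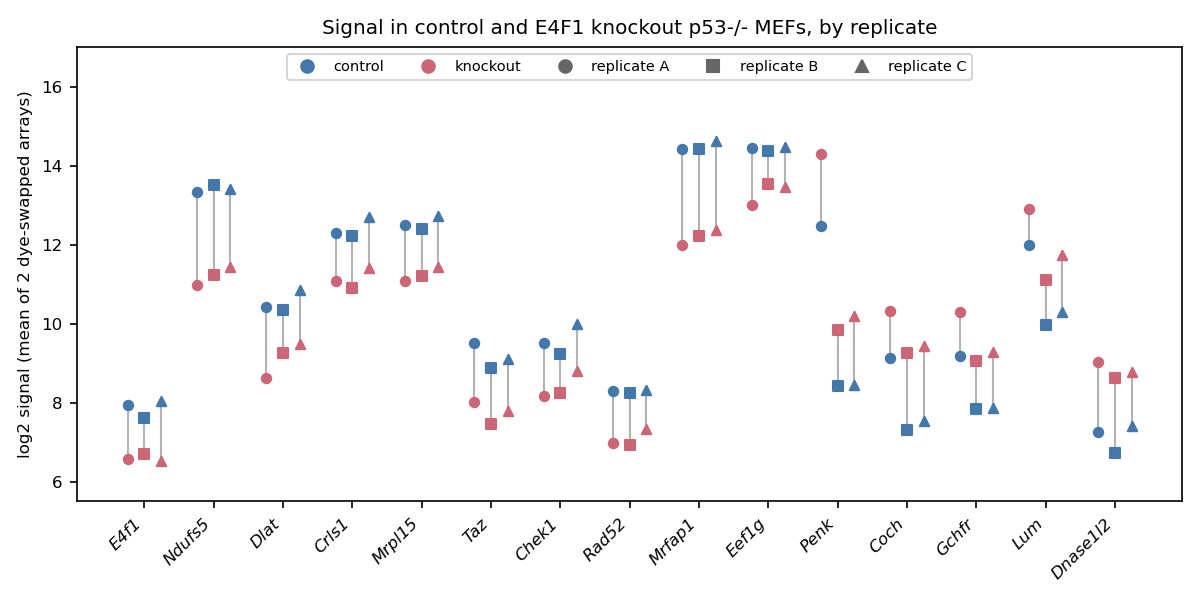
Log2 signal (y axis, mean of 2 dye-swapped arrays) of 15 genes in control (blue) and knockout (red) p53-/- MEFs, with a symbol for each of the 3 replicates and a grey line joining the pair on the same arrays. The first 10 genes fell and the last 5 rose in all 3 pairs, and replicate A lies above B and C for Penk, Coch, Gchfr and Lum.

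Pyruvate use by mitochondria was the first group examined. Dlat, which encodes the E2 subunit of pyruvate dehydrogenase, fell from log2 signals of 10.41, 10.35 and 10.84 in control to 8.62, 9.25 and 9.49 in knockout. All 3 knockout values lay below all control values, with a log2 ratio of -1.42 ± 0.35 (SD, n = 3; limma adjusted p = 0.0156), a 2.67-fold fall. Mpc1, a subunit of the carrier that brings pyruvate into mitochondria, was at 12.24, 11.97 and 12.08 in control and 11.56, 11.22 and 11.19 in knockout. Its groups did not overlap, but the log2 ratio of -0.77 ± 0.10 missed the threshold (SD, n = 3; limma adjusted p = 0.0912). Pdpr, the regulatory subunit of the phosphatase that activates pyruvate dehydrogenase, had a log2 ratio of -0.61 (adjusted p = 0.235), and Pdk1, a kinase that inhibits the complex, had 0.62 (adjusted p = 0.271). Of the 9 named genes of this list, 1 was called lower and 0 higher, and the median log2 ratio was -0.09 beside -0.01 for all 4414 named genes. Of all 4414 named genes, 45 were called lower and 8 higher, and the calls of this and every other list stand beside these counts. Probes could be named only where a deposited table or a RefSeq accession gave the gene, so that each list covers its named members only. Of the 4414 named genes, 747 were named by a RefSeq accession alone. The others were named through the authors' deposited tables of changed genes in either background. List medians and counts of signs therefore lean towards genes listed there as changed.

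Of 83 listed genes of the respiratory chain and ATP synthase only 21 could be named, and 1 of these was called. Ndufs5, an accessory subunit of complex I, fell 4.62-fold, from log2 signals of 13.32, 13.50 and 13.42 to 10.97, 11.23 and 11.42. The lowest control value lay far above the highest knockout value, and the log2 ratio was -2.21 ± 0.19 (SD, n = 3; limma adjusted p = 0.00187). The array also named its pseudogene Ndufs5-ps, whose 3 probes ran from -2.32 to -2.19, and probes of the pair cannot be told apart here. The other 20 named genes of the respiratory chain and ATP synthase had log2 ratios from -0.21 to 0.25 and were not called.

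The mitochondrial inner membrane gave 3 calls, all lower, among 16 named genes of import, chaperones and inner membrane, whose median log2 ratio was -0.06. Crls1, cardiolipin synthase, was at 12.30, 12.22 and 12.69 in control and 11.07, 10.89 and 11.40 in knockout. Every knockout value was below every control value, and the log2 ratio of -1.28 ± 0.05 varied little between replicates (SD, n = 3; limma adjusted p = 0.00987). Taz, tafazzin, which remodels cardiolipin, fell with a log2 ratio of -1.40 ± 0.08 (SD, n = 3; limma adjusted p = 0.00788). Dnajc19, which belongs to the inner membrane import machinery, fell at its bright probe from 13.25, 13.37 and 13.19 to 10.14, 10.79 and 10.88, a log2 ratio of -2.67 ± 0.41 (SD, n = 3; limma adjusted p = 0.00196). Its other 2 probes were not above the control probes in any sample and had log2 ratios of 0.02 and 0.26. Tomm7 and Tomm22, subunits of the outer membrane import pore, had log2 ratios of -0.54 (adjusted p = 0.363) and -0.11 (adjusted p = 0.832). Mrpl15, a protein of the large mitochondrial ribosomal subunit, fell with a log2 ratio of -1.31 ± 0.10 (SD, n = 3; limma adjusted p = 0.00987). Only 13 of 78 listed genes of the mitochondrial ribosome could be named. The other 12 named ones lay between -0.26 and 0.33 and were not called.

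E4F1 is known to bind letters close to TGACGTAAC and TGACGTCAC, which share the core TGACGT. These were searched on both strands in the RefSeq promoter windows of assembly GRCm38.p6, from 250 bases before to 50 bases after each gene's start, with windows found for 334 of the 475 genes. The core TGACGT was in a window of 8.37% of all 27025 genes with one. It was found for 32 of 194 genes with a log2 ratio under 0 (16.5%) and for 12 of 140 genes with one over 0 (8.57%). TGACGTAAC was in 0.111% of all genes, in 2 of the 194 and in 0 of the 140. TGACGTCAC was in 1.49% of all genes, in 8 of the 194 and in 2 of the 140. The further spellings TGACGTAA, TGACGTCA and TGACGTNAC, which overlap these, and GTGACG, which overlaps the core, were also searched: they were in 0.581%, 2.03%, 1.82% and 10.6% of all genes and in 2.06%, 4.12%, 5.67% and 19.6% of the 194. Among the 140 genes with a log2 ratio over 0 their shares were 0%, 2.86%, 2.14% and 5.71%. Of the 31 called lower genes with a window, 6 held the core, 1 held TGACGTAAC, 0 held TGACGTCAC and 9 held GTGACG. Dlat, Ndufs5, Mrfap1, Dnajc19, Taz, Chek1 and Mpc1 held no core in this window. A match is a description of letters and not a bound site.

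Stretches of 3 promoters are shown because they carry the full letters or the core at genes with values above or below: Crls1 and Pbrm1, which were called (Pbrm1, a chromatin remodelling subunit gene, at a log2 ratio of -1.39), and Pdpr, which was not. Each is read from RefSeq (GRCm38.p6) on the plus strand, the strand of the gene, with the matched letters in capitals. The Crls1 stretch is chr2:132847514-132847622, with its match 170 to 162 bases upstream of the start. The Pdpr stretch is chr8:111094546-111094655, with overlapping matches on both strands 149 to 140 bases upstream. The Pbrm1 stretch is chr14:31018979-31019084, with the core on the minus strand 109 to 104 bases upstream.
Crls1: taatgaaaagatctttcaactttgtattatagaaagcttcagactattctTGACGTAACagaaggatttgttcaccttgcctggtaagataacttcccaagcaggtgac
Pdpr: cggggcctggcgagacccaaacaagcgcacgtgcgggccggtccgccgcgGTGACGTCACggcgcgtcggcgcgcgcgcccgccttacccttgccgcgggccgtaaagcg
Pbrm1: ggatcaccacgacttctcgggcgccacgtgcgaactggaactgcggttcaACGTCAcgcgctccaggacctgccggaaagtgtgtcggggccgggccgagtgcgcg

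Genes of the DNA damage checkpoint and of repair came next, with 2 called lower of 13 named. Chek1, the checkpoint kinase that restrains the cell cycle when DNA is damaged, was at 9.52, 9.22 and 9.99 in control and 8.17, 8.23 and 8.81 in knockout. The groups did not overlap, with a log2 ratio of -1.17 ± 0.18 (SD, n = 3; limma adjusted p = 0.0159). Rad52, which anneals single-stranded DNA during repair, fell with a log2 ratio of -1.21 ± 0.18 (SD, n = 3; limma adjusted p = 0.0139), and only 1 of 6 knockout samples was above the control probes against 5 of 6 control samples. H2ax, the histone variant that marks breaks, had a log2 ratio of -0.03 at its brightest probe (adjusted p = 0.961). Of 5 named p53 targets, in cells without p53, 0 were called, and the one in the list of 475, Pmaip1, which encodes the cell death protein Noxa, had a log2 ratio of -0.56 (adjusted p = 0.442).

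All 11 named genes of a list linked to E4F1 in earlier work were in the longer SAM table, all listed as lower, and 7 were called lower. These were Dnajc19, Ndufs5, Dlat, Taz, Rad52, Chek1 and Eef1g, and the median log2 ratio of the list was -1.17. By the brightest probe 10 of the 11 had a log2 ratio under 0, and Rrp7a had 0.14. The list was drawn up with results of these data known and is not independent evidence of its direction.

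Translation and RNA processing gave few calls. Eef1g, a subunit of the elongation factor complex that loads tRNA, fell from 14.45, 14.37 and 14.47 to 13.01, 13.53 and 13.45, a log2 ratio of -1.10 ± 0.31 (SD, n = 3; limma adjusted p = 0.0424). It was the only called gene of 13 named translation factors. Ipo8, a nuclear import receptor, fell with a log2 ratio of -1.46 ± 0.06 (SD, n = 3; limma adjusted p = 0.0068). Only 7 of 54 listed genes of ribosome biogenesis and 10 of 64 of splicing and RNA decay could be named. Among these 0 were called, including Znhit6 at -0.71 (adjusted p = 0.12) and the decapping enzyme gene Dcp2 at -0.71 (adjusted p = 0.119). Of 22 named cytosolic ribosomal protein genes 1 was called, Rps2, at 1 probe of 3. That probe also had a dye effect in the fit with a dye term (limma adjusted p = 0.0287).

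The steepest falls included genes outside these groups. Zfp945, a zinc finger gene, was at 8.97, 8.94 and 8.95 in control and 6.18, 6.23 and 6.04 in knockout, where no sample was above the control probes at this probe. The 3 ratios lay close together, and the log2 ratio of -2.80 ± 0.10 (SD, n = 3; limma adjusted p = 0.000307) stands for a fall of at least 2.70-fold. Mrfap1, a small protein tied to chromatin complexes, fell 4.92-fold, from 14.43, 14.43 and 14.62 to 12.00, 12.23 and 12.37 (log2 ratio -2.30 ± 0.12, SD, n = 3; limma adjusted p = 0.00129). Fam229b fell with a log2 ratio of -1.97 (adjusted p = 0.00698) and Wdr7, which takes part in acidifying vesicles, with -1.93 (adjusted p = 0.0049). Upk1b, a bladder epithelium protein gene, at -1.47 ± 1.01, did not pass (SD, n = 3; limma adjusted p = 0.286). Upk1b had a ratio of -0.31 in replicate A and of -2.08 and -2.02 in B and C. Its control signal was 6.19 in A against 9.14 and 9.49 in B and C, and 4 of 6 control samples were above the control probes, so a lower knockout level in A could not be measured.

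**Figure D2:**
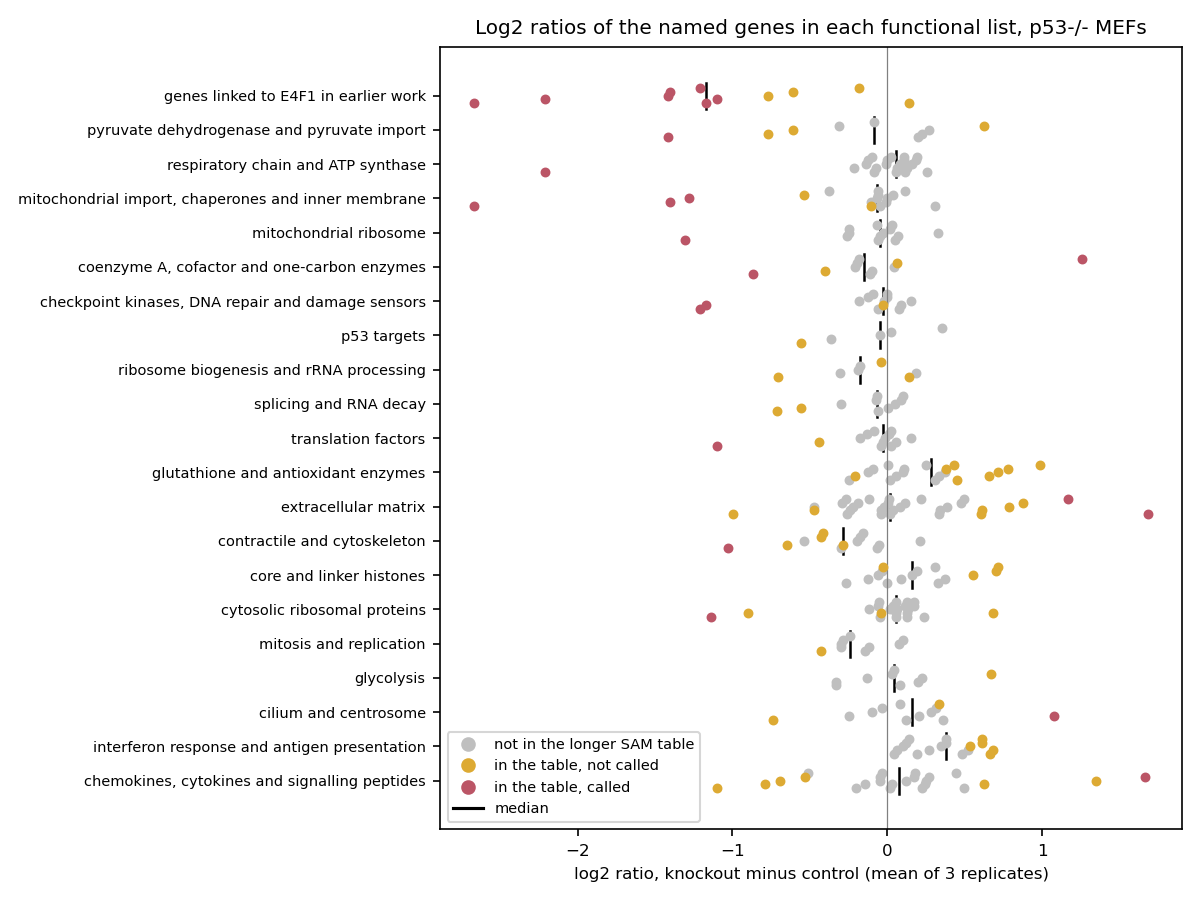
Log2 ratio of knockout to control (x axis, mean of 3 replicates, brightest probe) for every named gene of 21 functional lists in p53-/- MEFs, with points coloured by whether the gene is in the longer SAM table and whether it was called, and a black bar at each median. The E4F1-linked list has a median of -1.17, and in the respiratory chain and the mitochondrial ribosome 1 gene each stands far below the other named genes.

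On chromosome 17, 5 genes were called, E4f1 itself among them, of 28 chromosome 17 genes among the 475. The farthest called gene lies 131 gene positions from E4f1 in the GRCm38.p6 RefSeq order. That distance was set by the calls themselves, and 18 of the 28 genes lie at or within it. The called share was 17.9% on chromosome 17 and 10.7% for the rest of the 475, and chromosomes 10 and 14 had 5 of 19 and 4 of 17 called. The 5 are E4f1, its direct neighbour Dnase1l2, Rps2 (at 1 probe of 3, with a dye effect) at 23 positions, Zfp945 at 93 and Zfp52 at 131. Dnase1l2, a DNase I-like endonuclease gene known from skin, rose from 7.25, 6.72 and 7.40 to 9.02, 8.63 and 8.78. It gave the largest rise by a log2 ratio among the named genes, 1.69 ± 0.28 (SD, n = 3; limma adjusted p = 0.00728), with 6 of 6 knockout and 2 of 6 control samples above the control probes. Zfp52, a zinc finger gene, fell with a log2 ratio of -1.45 ± 0.48 (SD, n = 3; limma adjusted p = 0.0292). Control cells carry an unfloxed E4f1 allele and knockout cells a deleted one beside the floxed allele, in a mixed strain background, and the part of linked strain alleles in these 5 values was not tested.

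The 8 genes that rose were Dnase1l2, Coch, Penk, Gchfr, Lum, Cep290, Ppbp and Mme, the last named after its values were seen. Coch, the matrix protein cochlin, was at 9.12, 7.32 and 7.53 in control and 10.32, 9.27 and 9.43 in knockout, a log2 ratio of 1.68 ± 0.42 (SD, n = 3; limma adjusted p = 0.011). Penk, the precursor of the enkephalin opioid peptides, was at 12.47, 8.42 and 8.46 in control and 14.30, 9.83 and 10.20 in knockout. Replicate A was far above B and C in both groups, so that the groups overlap, but each pair rose and the log2 ratio was 1.66 ± 0.22 (SD, n = 3; limma adjusted p = 0.0068). Gchfr, the feedback regulator of GTP cyclohydrolase, rose with a log2 ratio of 1.26 ± 0.16 (SD, n = 3; limma adjusted p = 0.011). Cep290, a protein of the ciliary transition zone, rose with 1.07 ± 0.21 (SD, n = 3; limma adjusted p = 0.0281). Ppbp, a chemokine known from platelets, rose with 1.07 ± 0.31 (SD, n = 3; limma adjusted p = 0.0488). Mme, the membrane protease neprilysin, which degrades enkephalins, was at 9.80, 6.58 and 7.17 in control and 10.78, 7.56 and 8.06 in knockout, again highest in replicate A, with a log2 ratio of 0.95 ± 0.05 (SD, n = 3; limma adjusted p = 0.0291). At this probe 3 of 6 control and 5 of 6 knockout samples were above the control probes, and no probe of Mme was above them in all samples of a group.

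Slc30a4, a zinc transporter, was at 7.77, 7.26 and 7.50 in control and 7.77, 9.09 and 9.45 in knockout. It did not move in replicate A and was higher in B and C, and its log2 ratio of 1.26 ± 1.09 was not called (SD, n = 3; limma adjusted p = 0.432). Angptl7, a secreted angiopoietin-like protein, at 1.35 (adjusted p = 0.0666), Hebp1, a haem-binding protein, at 1.09 (adjusted p = 0.121), Fxyd6, a regulator of the sodium pump, at 1.02 (adjusted p = 0.187) and Gsta4, a glutathione transferase, at 0.99 (adjusted p = 0.168) completed the 12 largest log2 ratios above 0 among genes with the same sign in all 3 replicates and no clone or predicted-gene name.

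Of 31 named extracellular matrix genes, 2 rose (Lum and Coch) and 0 fell, with a median log2 ratio of 0.02. Lum, the proteoglycan lumican, rose from 11.99, 9.97 and 10.29 to 12.91, 11.10 and 11.74, a log2 ratio of 1.17 ± 0.27 (SD, n = 3; limma adjusted p = 0.0245), and again replicate A was highest in both groups. Dcn, decorin, at 0.87 (adjusted p = 0.114) and Efemp1, a fibulin, at 0.79 (adjusted p = 0.0996) were higher in all 3 pairs without passing. Ccn2, connective tissue growth factor, had a log2 ratio of -0.997 ± 0.67 and Fn1, fibronectin, of -0.47 ± 0.27 (SD, n = 3; limma adjusted p = 0.32 and 0.488).

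Of 24 listed contractile genes 13 could be named, and these were mostly lower. A log2 ratio under 0 was found for 12 of the 13, beside 2302 of all 4414 named genes. The median was -0.29 and 1 was called. Des, the intermediate filament protein desmin, fell with a log2 ratio of -1.03 ± 0.11 (SD, n = 3; limma adjusted p = 0.022), from dim signals of 8.43, 7.21 and 7.40 to 7.44, 6.05 and 6.46, with 4 of 6 control and 1 of 6 knockout samples above the control probes. Myh11, smooth muscle myosin, at -0.65 (adjusted p = 0.239), and Acta2, smooth muscle actin, at -0.29 (adjusted p = 0.562), were lower in all 3 pairs without passing.

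Glutathione and antioxidant enzyme genes had 8 of 20 named members in the longer SAM table, 7 listed as higher, and 0 called. Their median log2 ratio was 0.28. Mgst1, a microsomal glutathione transferase, was at 11.09, 10.63 and 10.71 in control and 12.26, 10.86 and 11.64 in knockout, so that the groups overlap (log2 ratio 0.78 ± 0.49, SD, n = 3; limma adjusted p = 0.359). Another probe of Mgst1 passed, with 1.19 (adjusted p = 0.0292). Nqo1, a quinone reductase, was at 8.66, 8.17 and 8.34 in control and 9.34, 8.96 and 8.82 in knockout, a log2 ratio of 0.65 ± 0.16 (SD, n = 3; limma adjusted p = 0.216). Mgst3, a further microsomal transferase, was at 0.71 (adjusted p = 0.336). Gsta4, Mgst3, Mgst1 and Gstm1 each differed most in replicate A, with 1.17, 0.23 and 0.93 in A, B and C for Mgst1 and 0.66, 0.45 and 0.24 for Gstm1.

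The 17 named interferon-induced and antigen presentation genes all had log2 ratios above 0, beside 2112 of all 4414 named genes, with a median of 0.38 and 0 called. The list holds 35 genes, and naming favoured genes listed by the authors as changed. The highest were Gbp2, a guanylate-binding protein, at 0.68 ± 0.37, Oas1a, an antiviral RNA sensor, at 0.66 ± 0.61, and Ifit1, which binds viral RNA, at 0.61 ± 0.17 (SD, n = 3; limma adjusted p = 0.343, 0.499 and 0.267). Oas1a was at 8.59, 9.86 and 10.06 in control and 9.95, 10.13 and 10.41 in knockout, most of it from replicate A. Among 15 named histone genes 0 were called, with H2bc4 at 0.72 (adjusted p = 0.12), H2bc9 at 0.70 (adjusted p = 0.153) and H2bc3 at 0.56 (adjusted p = 0.286). Histone genes of a cluster are nearly identical, and their probes may share signal.

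Of 24 named secreted signalling genes, Penk was the 1 called; Ppbp is not in that list. Igfbp5, which binds insulin-like growth factors, was at -1.10 ± 0.47 and the chemokine gene Ccl20 at -0.79 ± 0.21 (SD, n = 3; limma adjusted p = 0.109 and 0.121). Of 10 named genes of coenzyme and one-carbon metabolism, Gchfr rose and Nnmt, which methylates nicotinamide, fell, from 11.57, 12.68 and 12.79 to 10.72, 11.75 and 11.98. Its 3 ratios were alike while replicate A was lowest in both groups (log2 ratio -0.87 ± 0.06, SD, n = 3; limma adjusted p = 0.048). In the remaining lists, 1 of 12 named cilium genes was called (Cep290), and 0 of 9 named glycolysis genes and 0 of 9 named mitosis and replication genes were called, with median log2 ratios of 0.16, 0.04 and -0.24.

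Probes of 1 gene did not always move together. Of the 53 called genes, 38 had at least 2 probes above the control probes in all samples of a group, and for 36 of these all such probes went the same way. Ndufs5 gave log2 ratios of -2.24, -2.21 and -2.21 at its 3 probes, and Eef1g gave -1.17, -1.11 and -1.10. Rrp7a, a ribosome biogenesis gene, gave -3.54 at 1 probe (limma adjusted p = 0.000167), where 6 of 6 control and 0 of 6 knockout samples were above the control probes, so that this probe was at least 5.85-fold lower. Its other 2 probes gave 0.14 and 0.32, and Rrp7a was not called, since its brightest probe gave the 0.14 (adjusted p = 0.758). Similarly Tpmt, a thiopurine methyltransferase, gave -1.77 (adjusted p = 0.00242) at 1 probe and -0.40 and -0.35 at the others. Lsm4, of the RNA decay machinery, gave 1.47 (adjusted p = 0.00911) at 1 probe and -0.56 and -0.43 at the 2 brighter ones. Rps2 gave -1.14 (adjusted p = 0.0137) at 1 probe and 0.03 and 0.01 at the other 2. Ppcdc, an enzyme of coenzyme A synthesis, gave 1.52 (adjusted p = 0.00698) at 1 probe and 0.06 at its brightest. Over all 475 genes, listed probes went both ways for 5 genes, and the brightest probe went against the listed probes for 22.

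**Figure D3:**
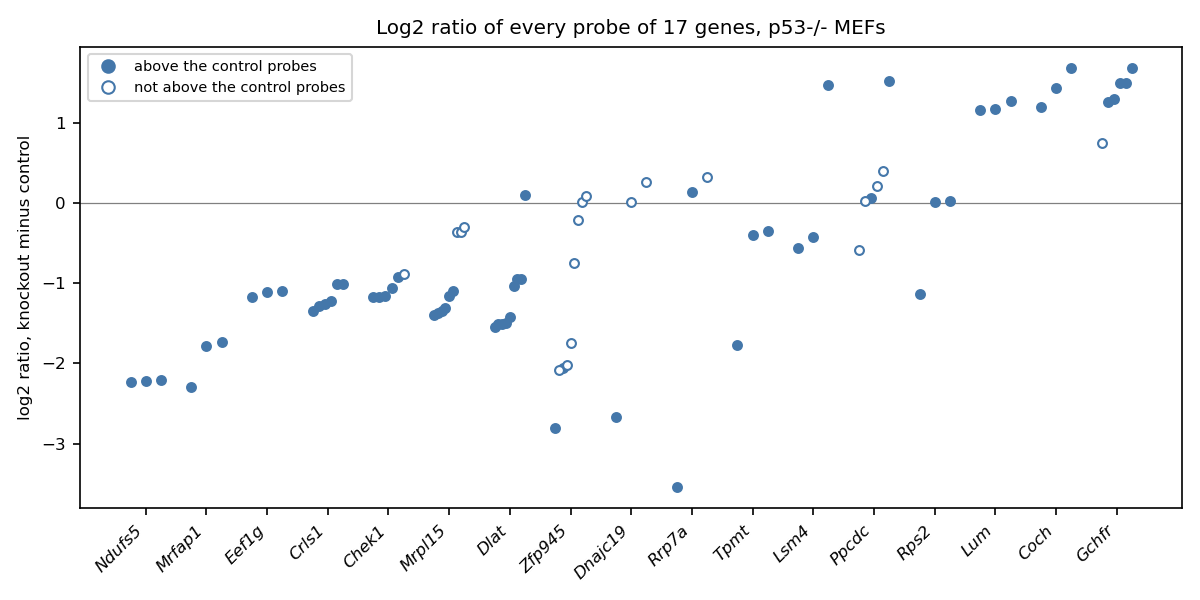
Log2 ratio (y axis, mean of 3 replicates) of every probe of 17 genes in p53-/- MEFs, with filled points for probes above the control probes in all samples of at least 1 group and open points for the others. All probes of Ndufs5, Mrfap1, Eef1g, Crls1 and Chek1 lie below 0, while Rrp7a, Tpmt, Lsm4, Ppcdc and Rps2 each have 1 probe far from the rest.

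The knockout effect was then set beside that in Ha-RasV12 cells, which share no samples with the p53-/- cells. Calls in Ha-RasV12 cells came from a limma fit of the replicate ratios of both backgrounds together, with a shared spread. That fit called 7 genes or unnamed transcripts in p53-/- cells, against 54 in the fit used for them elsewhere. Counts of both backgrounds thus rest on unlike tests. The SD of the log2 ratio over probes was 0.28 to 0.32 in p53-/- replicates and 0.47 to 0.64 in Ha-RasV12 replicates. In Ha-RasV12 cells 88 of the 475 genes were called, beside 2.04% of all genes or unnamed transcripts. Of the 88, 54 went the same way in both backgrounds. Of the 53 genes called in p53-/- cells, 29 were also called in the same direction in Ha-RasV12 cells and 0 in the opposite one. The test of the difference itself called 27 of the 475 genes (5.68%), beside 0.366% of all genes or unnamed transcripts, and 3 of the 53. The 475 and the 53 were chosen on p53-/- ratios, which enter this difference, so these shares are no separate support. Over all genes or unnamed transcripts the 157 calls of this test became 41, 18 and 20 without p53-/- replicate A, B or C. The 3 of the 53, named after their values were seen, are Stmn4, a tubulin-binding protein gene (log2 ratio -1.16 in p53-/- and 0.68 in Ha-RasV12 cells), Serpinb6b, a protease inhibitor gene (-0.98 and 0.26), and Stard3nl (-0.86 and 0.59).

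Ndufs5 and Dlat fell in both backgrounds. The log2 ratio of Ndufs5 was -3.25 in Ha-RasV12 cells (difference between backgrounds 1.05, adjusted p = 0.14), and that of Dlat was -2.08 (difference 0.66, adjusted p = 0.54). Mpc1, which did not pass in p53-/- cells, fell in Ha-RasV12 cells with a log2 ratio of -1.58 (adjusted p = 0.00129), and the difference of 0.81 was not called (adjusted p = 0.27). A p above the threshold does not show that these effects are alike.

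Several named genes of the matrix, contractile, antioxidant and antigen presentation groups were called for the difference with all replicates. Of the 12 named genes called for it, Acta2, Hoxd10, Cxcl12 and Igfbp7 stayed called without any 1 p53-/- replicate. No Ha-RasV12 replicate was left out, so that dependence on 1 of those was not tested. Without A, B or C the adjusted p was 0.0725, 0.087 and 0.0718 for Nqo1, 0.0677, 0.0534 and 0.101 for Ccn2, and 0.156, 0.136 and 0.146 for Fn1. Tap2 was lost without B or C (adjusted p = 0.0831 and 0.0844), and Flt1 without each (0.118, 0.138 and 0.148). Nqo1 had a log2 ratio of 0.65 in p53-/- cells and -2.41 in Ha-RasV12 cells, a difference of 3.06 (limma adjusted p = 0.0068). Acta2 had -0.29 and 2.73, a difference of -3.02 (adjusted p = 0.0014), Ccn2 had -0.997 and 2.05, a difference of -3.04 (adjusted p = 0.01), and Fn1 had -0.47 and 1.66, a difference of -2.13 (adjusted p = 0.019). Tap2, a peptide transporter for antigen presentation, had 0.61 and 2.72, a difference of -2.11 (adjusted p = 0.0072). Flt1, a receptor for vascular growth factors, had -0.85 (adjusted p = 0.0519) and 1.08, a difference of -1.93 (adjusted p = 0.015). Penk rose in p53-/- cells and had a log2 ratio of -2.33 in Ha-RasV12 cells (adjusted p = 0.28), and the difference of 3.99 was not called (adjusted p = 0.35).

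**Figure D4:**
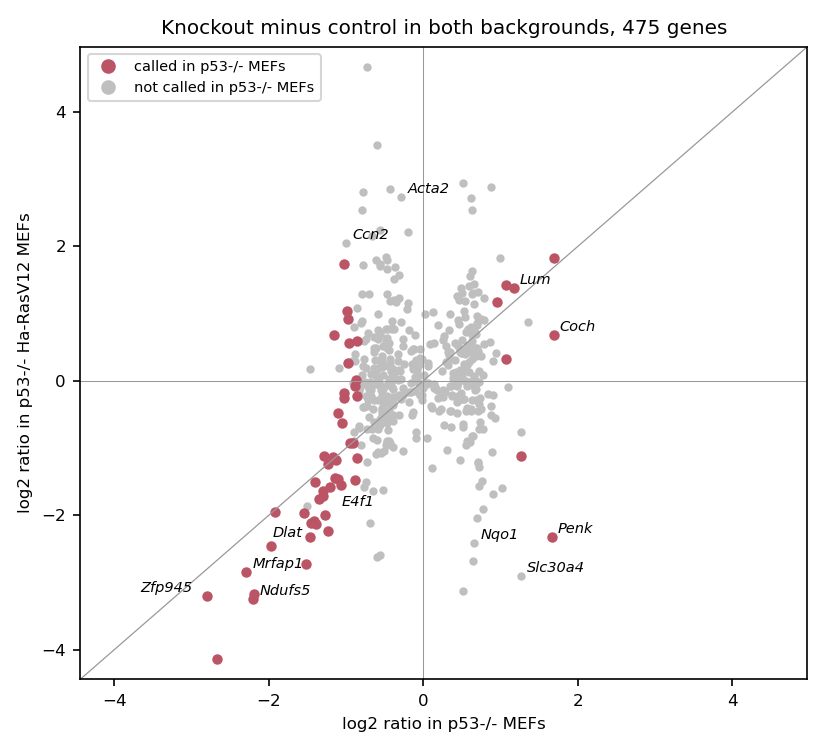
Log2 ratio of knockout to control in p53-/- MEFs (x axis) and in p53-/- Ha-RasV12 MEFs (y axis), each the mean of 3 replicates, for the 475 genes, with genes called in p53-/- MEFs in red and the line of equal ratios in grey. Ndufs5, Zfp945 and Mrfap1 lie low in both, and Acta2, Ccn2, Nqo1 and Slc30a4 lie on opposite sides of 0.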

How the data were processed

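RNA of 12 samples (2 groups of 3 replicates, each in both dyes) was measured on 6 of the 12 two-colour arrays of the series. The authors deposited a table of linear intensities, whose normalization method the labels do not state. The submitters' processing notes name limma. The authors deposited log2 fold changes and mean log2 signals, moderated t and SAM statistics as scores, and p-values and q-values. The log2 fold change recomputed from the intensities differed from the authors' deposited value by at most 4.055e-06, which settles scale and direction, knockout minus control. The deposited statistics were read as taking 6 arrays as independent, which counts dye swaps of a replicate as replicates. Whether the swaps used separate RNA preparations is not known here.

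Here log2 ratios were formed within each array and averaged over the dye swap. They were tested on 3 replicates with limma 3.58.1 (lmFit and eBayes, R 4.3.3), with Benjamini-Hochberg adjustment over 132488 probes. Calls in Ha-RasV12 cells and for the difference between backgrounds used a fit of the replicate ratios of both backgrounds. The 5000 random control probes were left out of the tests, and their 99th percentile in each sample set background. Names came from the deposited tables of both backgrounds, which were used for nothing else in Ha-RasV12 cells, and from RefSeq accessions (GRCm38.p6). RefSeq matched 451 of the 475 genes, and the rest are called as in the deposited tables. Control and knockout of a replicate share arrays, and their deviations from the group means correlated at 0.68, 0.66 and 0.65 for replicates A, B and C, so that the ratio serves as the replicate block.

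The genes and the lists were chosen with earlier results of these data known. Named genes are E4f1 and Trp53, the 12 lowest and 12 highest log2 ratios with the same sign in all replicates and a proper symbol, up to 6 listed genes of each list and up to 6 genes called for the difference between backgrounds. Some genes that this rule gives are not reported here. Ranges of probes, Mme, the gene order around E4f1 and the signal level of replicate A were looked at after seeing the data. The number of arrays limits the precision. The fit was tested on simulated data. Alternatives covered the block, dye, normalization, dim probes, variance trend, probe choice, threshold and replicates left out. Python 3.11.15 with pandas 2.3.3, numpy 2.4.6 and matplotlib 3.10.9 was used for summaries and figures.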

Additional observations from a re-analysis of the deposited data

Results flagged for a closer look

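For 6 genes the test of the difference in knockout effect between p53-/- and Ha-RasV12 cells passed with the largest differences among named genes (limma, adjusted p from 0.0007 to 0.021). In all 6 the log2 ratio was farther from 0 in Ha-RasV12 cells. Hoxd10, Cxcl12 and Igfbp7 stayed called without any 1 p53-/- replicate, while S100a4 and Cnr1 were lost without each of the 3 and Slc30a4 without B or C. Ha-RasV12 replicates were not left out. S100a4, a calcium-binding protein, had log2 ratios of 0.57 in p53-/- and -4.19 in Ha-RasV12 cells, a difference of 4.76. Hoxd10, a homeobox gene, had 0.11 and -4.33, a difference of 4.44. The zinc transporter gene Slc30a4, in the longer SAM table, had 1.26 and -2.91, a difference of 4.17. The chemokine gene Cxcl12 had 0.02 and 4.13, a difference of -4.11. Igfbp7, which binds growth factors, had -0.51 and 3.37, a difference of -3.88. Cnr1, a cannabinoid receptor gene whose brightest probe was not above the control probes in any p53-/- sample, had -0.07 and 3.77, a difference of -3.84, whose p53-/- side was thus at background and not measured.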

How the results depend on the processing

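The count of called genes or unnamed transcripts, 54 (9 higher and 45 lower), moved with most choices, and the cause was not tested beyond what each setting changes by construction. Taking 6 arrays as independent gave 96 (23 and 73), a random replicate block (duplicateCorrelation) 153 (50 and 103) and a dye term, added after seeing the data, 100 (25 and 75). With no replicate block, control against knockout unpaired, 6 were called (0 and 6), and with the spread shared over all samples of both backgrounds 7 (1 and 6). A trend on signal in eBayes gave 297 (122 and 175), means over probes 199 (80 and 119) and probes above the control probes only, added after seeing the data, 223 (78 and 145). The 3 arrays with knockout in Cy5 gave 5 (0 and 5) and the 3 with knockout in Cy3 gave 10 (1 and 9). A threshold of 0.01 gave 18 (2 and 16). The authors' deposited limma table held 239 (92 and 147), the authors' deposited SAM table named for 1% held 240 (70 and 170), and the one named for 5% held 475 (193 and 282). Without 1 replicate the count ran from 9 without B (1 and 8) through 46 without A (16 and 30) to 105 without C (44 and 61). Median centring and loess left 54, quantile normalization gave 52, leaving out the dimmest probes 68, and a threshold of 0.1 gave 67.

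The 157 genes or transcripts called for the difference between backgrounds became 1002 with arrays independent, and 18 to 41 without 1 p53-/- replicate. Of 27 called named genes, 27 remained called with loess, a trend or duplicateCorrelation, 26 with arrays independent, 20 without A, 8 without B, 27 without C and 5 with no replicate block (Zfp945, Dnajc19, Mrfap1, Ndufs5 and Wdr7). Signs turned only for small ratios or where probes disagree. Means over probes gave -1.03 for Rrp7a, 0.29 for Polr1d and 0.16 for Lsm4. Knockout in Cy5 gave 0.0092 for H2ax, 0.22 for Acta2 and 0.61 for Rps25, and knockout in Cy3 gave 0.31 for Polr1d, -0.0088 for Hoxd10 and -0.20 for Cxcl12. Without 1 replicate, the lowest and highest log2 ratios were -0.024 and 0.11 for Ppcdc, -0.11 and 0.045 for H2ax, -0.13 and 0.055 for Polr1d, -0.079 and 0.0078 for Rps25, -0.17 and 0.38 for Cxcl12 and -0.12 and 0.030 for Cnr1.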

Other observations

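Further genes of the longer SAM table fell in knockout cells and belong to other processes, and they are named after their values were seen. Psmb6, a catalytic subunit of the proteasome, was at log2 signals of 14.68, 14.66 and 14.66 in control replicates A, B and C and 13.48, 13.36 and 13.45 in knockout. The groups lay far apart at a high signal, with a log2 ratio of -1.24 ± 0.06 (SD, n = 3; limma adjusted p = 0.00987). Hax1, a mitochondrial protein that protects cells from death, was at 13.16, 13.26 and 13.49 in control and 11.85, 11.91 and 12.23 in knockout, a log2 ratio of -1.31 ± 0.05 (SD, n = 3; limma adjusted p = 0.00911). Elp3, the catalytic subunit of Elongator, which modifies tRNA, fell with a log2 ratio of -1.35 ± 0.14 (SD, n = 3; limma adjusted p = 0.00953). Pbrm1 fell from 12.28, 11.82 and 12.15 to 10.55, 10.47 and 11.06, a log2 ratio of -1.39 ± 0.32 (SD, n = 3; limma adjusted p = 0.0147). All 3 probes of Psmb6 and all 6 each of Hax1 and Elp3 were called lower.

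Nnat, an imprinted gene known from brain, was at 10.54, 8.97 and 9.29 in control and 9.28, 8.19 and 8.35 in knockout, highest in replicate A in both groups, so that the groups overlap while each pair fell (log2 ratio -0.995 ± 0.25, SD, n = 3; limma adjusted p = 0.0488). In Ha-RasV12 cells its log2 ratio was 1.04. Tcf7l2, a transcription factor of Wnt signalling, fell from 14.36, 14.63 and 14.83 to 13.39, 13.83 and 13.69 at 1 probe (log2 ratio -0.97 ± 0.17, SD, n = 3; limma adjusted p = 0.0374), and its other 5 probes were not above the control probes in all samples of a group.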
